A study of Rattus norvegicus with 115 samples.

Results

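The genes described here are 6 complement genes, Cfp, Cd59, C1qa, C1qb, C1qc and C3, out of the 17455 gene symbols counted in rat mammary tumours. They are the rows of the count table with these symbols, and they were chosen by their measured counts, since they had differed between the combination and vehicle in CD45 libraries of 8 rats examined earlier. Tumours were induced in virgin Sprague Dawley rats by NMU, the methylating carcinogen N-nitroso-N-methylurea (1 to 3 intraperitoneal doses of 50 mg/kg, with rats aged between 35 and 53 days). Rats of the immunotherapy cohort with palpable tumours were given vehicle, a monoclonal antibody to PD-L1 (a ligand that restrains T cells), the TGFBR1 inhibitor LY2157299 (galunisertib, which blocks the kinase of a TGF-beta receptor), or both agents together (the combination), and rats of a characterisation cohort carried NMU tumours without any treatment. Tumours were digested with collagenase and sorted, and bulk RNA of each fraction was sequenced. The count table has columns of which 107 were tied to a treatment group (27 vehicle, 24 anti-PD-L1, 21 combination, 15 TGFBR1 inhibitor and 20 untreated tumour), all of them from rats given NMU. Column names give the rat and the tumour but not the sorted fraction, so columns were divided by their own Ptprc level (Ptprc encodes CD45, the common surface protein of leukocytes). Doses, schedules and the ages at which tumours were collected were not used here.

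Complement is a cascade of blood and tissue proteins that marks particles for uptake and can puncture membranes. C1qa, C1qb and C1qc encode the 3 chains of C1q, which recognises bound antibody and dying cells and starts the classical pathway, and which is made mainly by macrophages and dendritic cells. C3 encodes the protein on which all starting pathways converge and whose fragments coat targets. Cfp encodes properdin, released by myeloid cells, which stabilises the C3-cleaving enzyme of the alternative pathway. Cd59 encodes a membrane-anchored inhibitor of the membrane attack complex that most cell types carry.

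The promoters of 4 of the 6 genes are shown because the C1q chains varied together across rats while Cfp and C3 followed them less closely. They are RefSeq sequences of assembly GRCr8, 250 bases before to 50 bases after the annotated start, read 5′ to 3′ on the strand of the gene. Capitals mark matches, on either strand, to GAGGAA (a core that the myeloid factor PU.1 can bind), TTGCNNAA (a C/EBP-type motif) or TGANTCA (an AP-1 motif). No sequence is shown for C1qc or Cd59.
C1qb, chr5:154407778-154408077, minus strand: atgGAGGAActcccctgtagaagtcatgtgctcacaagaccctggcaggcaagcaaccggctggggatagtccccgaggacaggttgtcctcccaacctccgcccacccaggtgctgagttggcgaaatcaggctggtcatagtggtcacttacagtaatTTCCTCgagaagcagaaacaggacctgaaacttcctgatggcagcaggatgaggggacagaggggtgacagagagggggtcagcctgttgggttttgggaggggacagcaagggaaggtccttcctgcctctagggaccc
C1qa, chr5:154419884-154420183, minus strand: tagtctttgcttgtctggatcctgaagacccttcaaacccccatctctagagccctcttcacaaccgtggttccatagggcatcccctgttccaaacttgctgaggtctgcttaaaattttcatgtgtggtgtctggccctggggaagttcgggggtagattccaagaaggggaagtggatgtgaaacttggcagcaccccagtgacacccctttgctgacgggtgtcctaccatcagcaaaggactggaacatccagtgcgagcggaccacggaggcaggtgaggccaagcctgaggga
Cfp, chrX:3715301-3715600, plus strand: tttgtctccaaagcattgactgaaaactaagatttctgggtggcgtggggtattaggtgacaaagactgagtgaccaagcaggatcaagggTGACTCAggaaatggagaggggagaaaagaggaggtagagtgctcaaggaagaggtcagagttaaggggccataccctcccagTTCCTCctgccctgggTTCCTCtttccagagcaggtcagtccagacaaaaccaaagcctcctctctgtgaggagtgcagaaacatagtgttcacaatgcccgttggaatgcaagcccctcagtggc
C3, chr9:2201290-2201589, minus strand: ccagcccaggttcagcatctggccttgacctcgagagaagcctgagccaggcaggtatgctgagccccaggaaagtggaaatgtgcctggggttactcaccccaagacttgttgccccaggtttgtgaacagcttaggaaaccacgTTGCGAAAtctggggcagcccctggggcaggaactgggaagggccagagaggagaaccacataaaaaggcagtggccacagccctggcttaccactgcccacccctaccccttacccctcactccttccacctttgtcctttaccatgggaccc
The C1qb window held GAGGAA once on each strand, the nearer match 90 to 85 bases before the start. The Cfp window held it at 76 to 71 and at 60 to 55 bases before the start, and an AP-1 motif further upstream. The C3 window held 1 C/EBP-type match upstream, and the C1qa window held none of the 3 motifs. Of 33469 promoter windows of the same length, 27.6% held GAGGAA, 10.6% TTGCNNAA and 7.33% TGANTCA. A match is only an occurrence of these letters. In the same assembly C1qb, C1qc and C1qa are direct neighbours on chromosome 5.

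Levels are given as CPM, counts scaled to the total count of the column or library, and columns with at least 300 CPM of Ptprc are called leukocyte columns here. There were 44 of them, 1 from each of 44 tumours of 31 rats, and 63 other columns. Ptprc ran from 486 to 2049 CPM in the leukocyte columns and from 0.065 to 165 CPM in the others, so no column lay near the limit. The leukocyte columns held 6609198 to 29727437 counts. Cd3e, a T cell marker, had a median of 843 CPM in them, the macrophage markers Cd68 and Csf1r had medians of 191 and 93.2 CPM, and Epcam, an epithelial marker, had a median of 24.7 CPM against 1869 CPM in the other columns. The column just inside the limit, tumour 3 of vehicle rat P5 with 486 CPM of Ptprc, held 21.7 CPM of Cd3e and 1354 CPM of Cd68. The column just outside, from tumour 1 of untreated rat C5 with 165 CPM of Ptprc, held 1100 CPM of Cd3e and only 18.98 CPM of Epcam. In untreated rat C9 the 8 neutrophil markers summed to 48110 CPM in the leukocyte library.

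Cfp and the C1q chains were concentrated in the leukocyte columns, and Cd59 was not. Cfp had a median of 216 CPM (34.4 to 1077) over the 44 leukocyte columns and 5.18 CPM (0 to 364) over the 63 others. The highest Cfp value among the other columns came from the column of rat C5 just below the Ptprc limit. C1qb had medians of 96.8 CPM (2.34 to 3349) and 15.98 CPM (0 to 497), C1qa of 149 and 12.8 CPM, and C1qc of 96.4 and 15.5 CPM. C3 had medians of 44.1 CPM (0 to 1292) and 24.6 CPM (0 to 354). Cd59 ran the other way, with 103.6 CPM (19.7 to 712) in the leukocyte columns and 188 CPM (66.03 to 425) in the others, where it was detected in every column.

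The same picture held within tumours. In 35 tumours of 26 rats that had a leukocyte column and at least 1 other column, the median log2 difference, leukocyte minus other, was 5.27 for Cfp (higher in 34 of 35 tumours), 4.198 for C1qa (30 of 35), 3.74 for C1qb and 3.52 for C1qc (29 of 35 each). C3 was higher in the leukocyte column in 25 of 35 tumours, with a median of 1.07 and a range from -7.98 to 6.30. Cd59 was higher in only 10 of 35 tumours, with a median of -1.06. These differences are on the log2(CPM + 0.5) scale and are given without a test, since the columns were divided by expression. By these levels Cfp and the C1q chains were higher in the leukocyte column of most tumours. The C1q chains, Cd59 and C3 were also present in columns with little Ptprc. With the inhibitor C1qb had medians of 69.7 CPM in leukocyte columns and 47.2 CPM in the others. The highest C1q levels of the other columns came from tumour 1 of combination rat P23, with 36.9 CPM of Ptprc. That column held 434 CPM of C1qa, 497 of C1qb and 668 of C1qc. Cd59 and C3 are not specific to macrophages here.

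**Figure D1:**
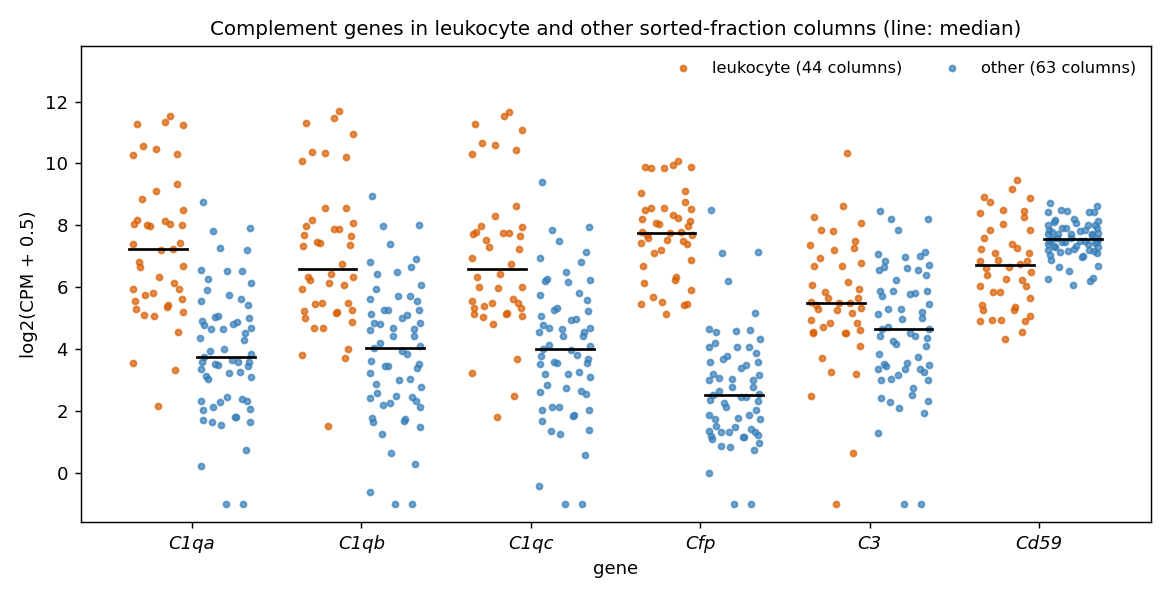
Level of each gene as log2(CPM + 0.5), 1 point per column, in 44 leukocyte columns (at least 300 CPM of Ptprc) and 63 other columns, with a line at the median. Cfp and the C1q chains stand higher in leukocyte columns, while Cd59 has a median of 103.6 CPM in leukocyte columns and 188 CPM in the others.

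Across rats, 5 of the 6 genes formed 2 groups, the C1q chains and Cfp with Cd59, and C3 stood outside both. The leukocyte columns of a rat were summed, giving 31 libraries, and log2 CPM (scaled by TMM, prior count 2) were correlated across them as a description. The libraries come from 5 treatment groups and several batches, which the points therefore share. They include the 8 earlier rats, whose combination and vehicle values chose the genes, so the r values are not independent of that choice. No r was taken without these rats. The 3 C1q chains followed each other with Pearson r of 0.964 to 0.988, and Cfp followed Cd59 with r = 0.93. Between these groups r was lower, from 0.626 for Cd59 with C1qc to 0.791 for Cfp with C1qa. C3 followed no other of the 6 genes with r above 0.683.

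Over the same 31 rats, the earlier ones included, the nearest neighbours among 7788 genes with a mean of at least 10 CPM differed accordingly. For C1qa they were C1qb, C1qc and Folr2 (a folate receptor of macrophages, r = 0.956). For C1qb and C1qc they were the other chains and Npc2 (a lysosomal cholesterol carrier), with r of 0.934 and 0.941. For Cfp they were Fcrl2, Csf2ra (a GM-CSF receptor chain) and Cd74 (the MHC class II invariant chain), with r of 0.938 to 0.940. For Cd59 they were Cfp, Cd68 (r = 0.924) and Rassf4 (r = 0.921). For C3 they were Mitf (a transcription factor, r = 0.834), Creb5 (0.818) and Ctbp2 (0.811), less close than for any of the others. Each gene followed the mean of 16 macrophage markers, with r of 0.939 for C1qa, 0.917 for C1qb, 0.904 for C1qc, 0.839 for Cfp, 0.812 for Cd59 and 0.71 for C3. With the mean of 10 T cell markers r was negative, from -0.644 for Cd59 to -0.408 for C1qc, and with the mean of 8 neutrophil markers it was 0.187 to 0.466. In a bulk library fewer cells of a type and less RNA per cell cannot be told apart.

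Single rats show how the C1q chains and Cfp differed. Vehicle rats P6 and P8 and untreated rat C2 had the highest C1qb levels, 2268, 2465 and 2544 CPM, and among them Cfp was 789, 296 and 938 CPM. Combination rat P33 had the highest Cfp level of all, 980 CPM, with 206 CPM of C1qb. Vehicle rat P13, an earlier rat, had 532 CPM of Cfp with 66.6 CPM of C1qb. Untreated rat C11 had 433 CPM of Cfp with 35.7 CPM of C1qb. A high Cfp level thus occurred both with high and with low C1q levels. The lowest C1qb level, 2.34 CPM, was in anti-PD-L1 rat P28, whose Cfp level was 43.04 CPM.

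**Figure D2:**
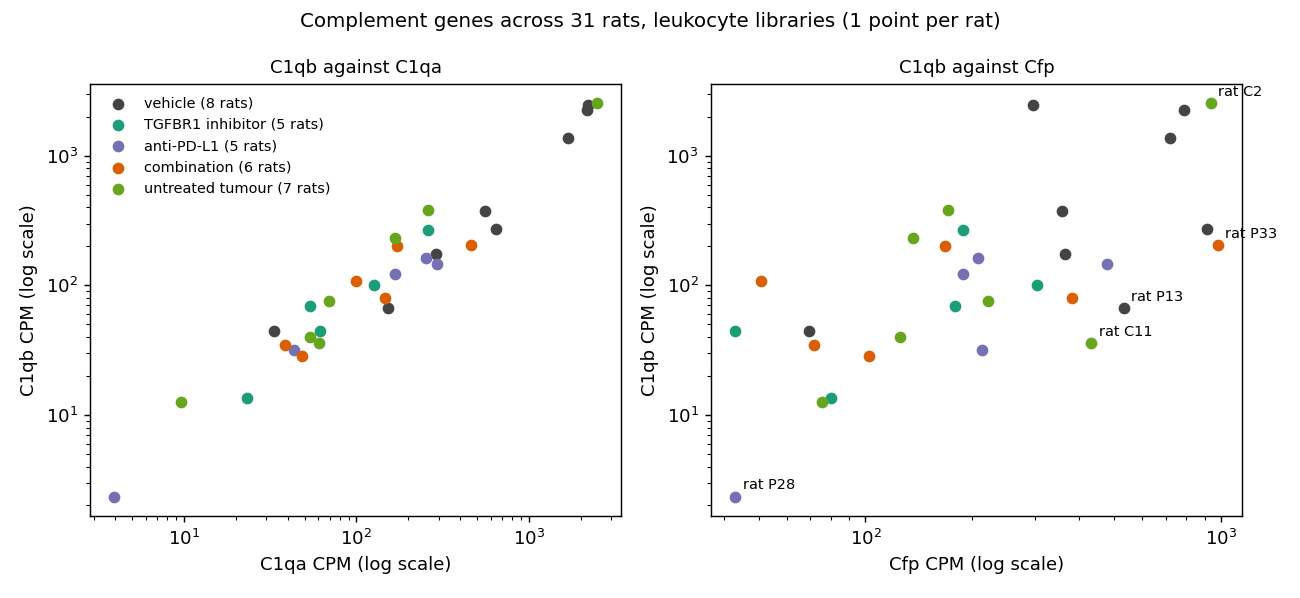
CPM of C1qb against C1qa (left) and against Cfp (right) in leukocyte libraries of 31 rats, 1 point per rat, both axes logarithmic, coloured by treatment. C1qb follows C1qa closely, whereas rats P33, P13 and C11 combine high Cfp with C1qb levels of 206, 66.6 and 35.7 CPM. The 8 earlier rats are included.

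The levels by treatment were compared in rats that played no part in choosing the genes. These were 5 vehicle rats, 3 on the TGFBR1 inhibitor, 5 on anti-PD-L1 and 3 on the combination. In the treatment contrasts the 8 earlier rats (3 vehicle, 2 on the inhibitor and 3 on the combination) are described apart, with no test. The rat is the replicate, since the agents were given to the rat. All 6 genes passed the filter on low counts and were tested among 12334 genes with edgeR's quasi-likelihood test, with fold changes scaled by TMM. No gene of the whole table passed an adjusted p of 0.05 in any treatment contrast (percent called 0%), so no change is called for any of the 6. At an unadjusted p under 0.05, in either direction, the test gave 650 genes for the combination (5.27% of those tested), 1105 for anti-PD-L1 (8.96%) and 1541 for the inhibitor (12.5%), each against vehicle. It gave 180 for the combination against anti-PD-L1 (1.46%) and 456 for the combination against the inhibitor (3.7%). DESeq2, the other count test tried, called 2 genes for the combination against anti-PD-L1 (0.0162%) and none against the inhibitor (0%).

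Among the recognition genes, the C1q chains reached the highest levels of the compared rats in vehicle, and no rat given an agent came near them. Outside this comparison, untreated rat C2 held 2544 CPM of C1qb and the other untreated rats 12.5 to 381 CPM. In vehicle, C1qb was 2465 CPM in rat P8, 2268 in P6, 373 in P4, 176 in P39 and 44.4 in P7. On the TGFBR1 inhibitor it was 13.6, 44.1 and 100.7 CPM, on anti-PD-L1 2.34, 31.6, 123, 147 and 163 CPM, and on the combination 79.2, 203 and 206 CPM. All vehicle rats but P7 stood above every inhibitor and anti-PD-L1 rat, and rat P7 lay inside the inhibitor and anti-PD-L1 ranges and below the combination rats, so the groups overlapped in every contrast. Rat P7 was also low in macrophage markers, whose 16 genes summed to 732 CPM there and to 1768 to 8547 CPM in the other 4 vehicle rats. The deposited sample table classes its tumour as stable, and the leukocyte columns of the other 4 vehicle rats came from growing tumours. Those of inhibitor rats P17 and P21, anti-PD-L1 rat P28 and combination rat P36 came from stable tumours, and rat P24 had both classes. Growth class was thus uneven between the arms, and its part was not tested.

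Against vehicle, the log2 fold change of C1qb was -4.45 ± 1.47 (SE) with the inhibitor, -3.60 ± 1.13 with anti-PD-L1 and -2.67 ± 1.33 with the combination. The unadjusted p was 0.00883, 0.00635 and 0.0637, and the adjusted p (edgeR) 0.331, 0.533 and 0.835. C1qa had log2 fold changes of -4.02, -2.87 and -1.90 and C1qc of -4.29, -3.55 and -2.53 in the same order. With the inhibitor and with anti-PD-L1 all 3 chains had an unadjusted p under 0.05 with lower levels, as did 7.27% and 6.04% of all genes tested. With the combination none of the 6 genes did, against 2.76% of all genes. The 3 contrasts share the 5 vehicle rats. DESeq2 called 27 genes higher and 76 lower for the inhibitor (0.835% of those tested), among them C1qb, C1qc and C1qa with adjusted p of 0.0274, 0.0417 and 0.0493. It called 4 genes higher and 49 lower for anti-PD-L1 (0.43%), and there C1qb and C1qc had adjusted p of 0.059 and 0.0678. For the combination it called 3 genes, all lower (0.0243%), none of the 6. These fits cover leukocyte columns. In the other columns, earlier rats included and without a test, the C1q chains had their highest medians with the inhibitor. C1qb was there at 47.2 CPM with the inhibitor, 24.2 in vehicle, 7.70 with the combination and 5.93 with anti-PD-L1. C1qa was at 50.9 CPM with the inhibitor and 18.9 in vehicle, and C1qc at 48.1 and 22.98 CPM.

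The deposited sample table numbers a batch for each tumour without saying what it stands for, and both batches of these tumours held rats of every treatment. With the share of a rat's columns in batch 3 as a covariate, the log2 fold change of C1qb was -4.59 with the inhibitor, -3.88 with anti-PD-L1 and -2.77 with the combination. In batch 2 alone (4 vehicle, 2 inhibitor, 4 anti-PD-L1 rats and 1 combination rat) it was -4.03, -4.87 and -3.37, and in batch 3 alone (3, 2, 4 and 2 rats) -4.54, -2.98 and -2.44. Rats P6, P8, P22, P24, P26 and P29 gave a column to each batch, so these fits share rats and are not independent.

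Macrophage markers were, by their fitted values, also lower in the treated arms. The 16 markers summed to 732 to 8547 CPM in vehicle, 563 to 1555 CPM with the inhibitor, 475 to 2038 CPM with anti-PD-L1 and 1485 to 3908 CPM with the combination. Of the 15 markers tested, 15, 15 and 12 had a log2 fold change below 0 for the inhibitor, anti-PD-L1 and the combination against vehicle, with medians of -2.61, -1.99 and -1.29, and none passed. None of the 16 markers was at 0 in all rats. Their part in the differences of the C1q chains was not tested. Each gene was also taken relative to the mean log2 CPM of the 16 markers. On that scale C1qb differed from vehicle by -1.44 with the inhibitor, -1.34 with anti-PD-L1 and -0.78 with the combination. The exact two-sided permutation tests over rats gave p = 0.125, 0.0794 and 0.196, and adjusted p over the 30 tests of 0.469, 0.446 and 0.476.

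Markers of other cells also differed in their ranges, and their part was not tested either. The sum of 8 neutrophil markers was 71.1 to 2733 CPM in vehicle, 6.25 to 66.7 CPM with the inhibitor, 2.14 to 918 CPM with anti-PD-L1 and 67.8 to 132 CPM with the combination. The sum of 10 T cell markers overlapped, at 1519 to 5279 CPM in vehicle and 2810 to 6005 CPM over the treated rats. Mast cell and eosinophil markers summed to 37.4 to 463 CPM in vehicle and 18.7 to 36.9 CPM with the inhibitor. B and plasma cell markers summed to 17.6 to 61.1 CPM and 66.6 to 163 CPM in the same order. Neither these sums nor the neutrophil sum overlapped between vehicle and the inhibitor. With anti-PD-L1 and the combination all of them overlapped with vehicle. Fibroblast markers summed to 11.1 to 1056 CPM in vehicle and 16.6 to 93.4 CPM with the inhibitor. Ptprc itself was 680 to 1021 CPM in vehicle and 996 to 1602 CPM with the inhibitor. It was 1133 to 1539 CPM with anti-PD-L1 and 1137 to 1322 CPM with the combination. Every anti-PD-L1 and combination rat thus stood above every vehicle rat. The share of all genes separated in these ways is not given here.

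**Figure D3:**
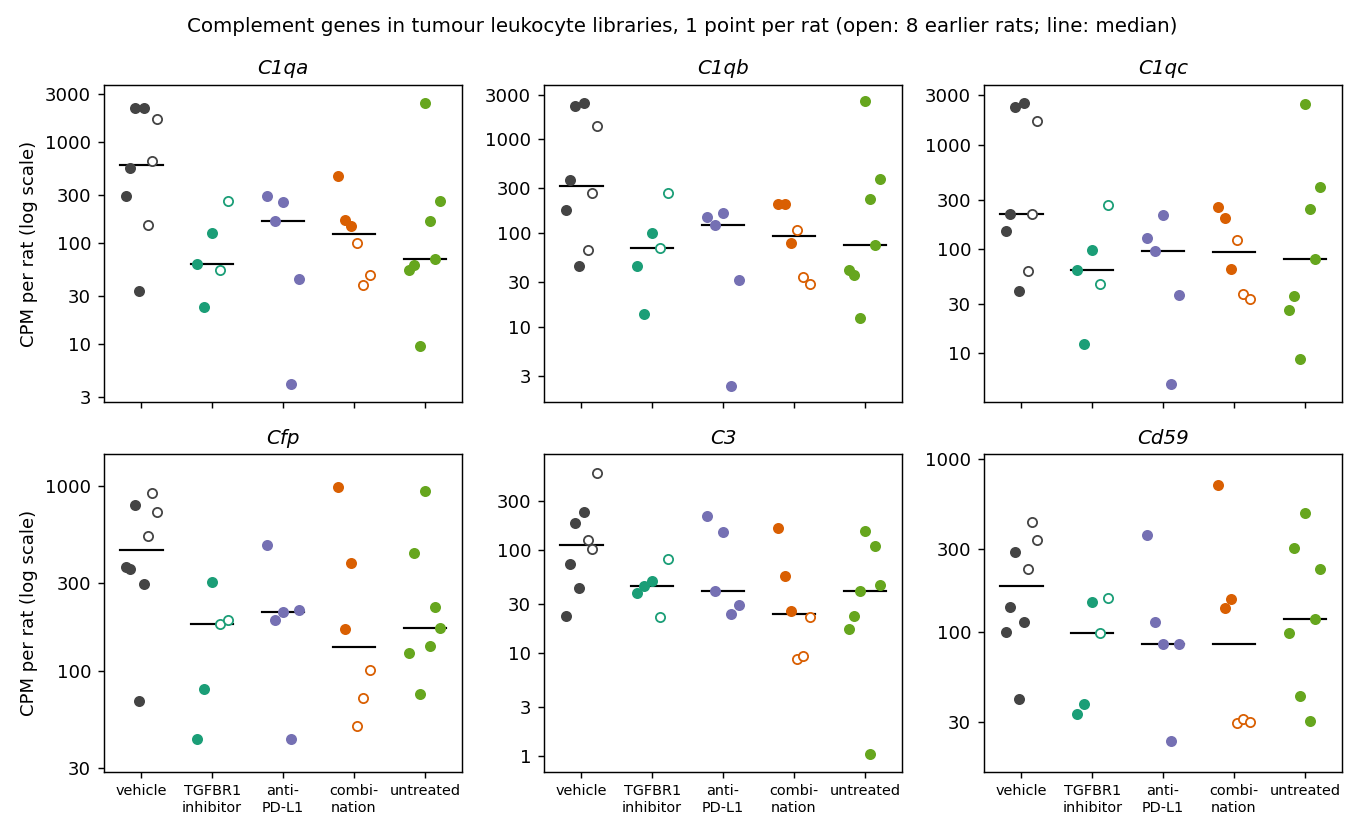
CPM of each gene in the leukocyte library of each rat, on a logarithmic axis, by treatment, with a line at the group median. Open points are the 8 earlier rats. No rat given an agent exceeds 459 CPM of C1qa, and combination rat P33 stands highest for Cfp and Cd59.

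Cfp, the amplifier of the alternative pathway, did not show in these rats the low combination levels of the earlier rats. In vehicle Cfp was 69.4, 296, 357, 365 and 789 CPM, and with the combination it was 168, 380 and 980 CPM. The groups overlapped throughout, and the log2 fold change was 0.59 ± 0.81 (SE; edgeR adjusted p = 0.919). In the earlier rats it had been 532, 719 and 917 CPM in vehicle against 50.8, 71.6 and 102.02 CPM with the combination. These are values per rat, and the gene was chosen on libraries of these rats whose name fitted 1 sample only. For rats P5 and P31 that library was 1 of 3 columns, with 915 and 34.4 CPM of Cfp. Over all 6 combination and 8 vehicle rats the fitted log2 difference was -0.65 ± 0.67 (SE). Without rat P33 the value outside the earlier rats was -0.62, in batch 2 alone -1.78 and in batch 3 alone 1.33. With anti-PD-L1 Cfp was 43.04, 188, 208, 213 and 479 CPM (log2 fold change -0.82 ± 0.72 SE), and with the inhibitor 43.02, 80.2 and 304 CPM (-1.52 ± 0.88 SE), with edgeR adjusted p of 0.724 and 0.47.

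Cd59, the inhibitor of the membrane attack complex, gave values like those of Cfp. In the earlier rats it had been 231, 341 and 432 CPM in vehicle and 29.4, 29.7 and 31.04 CPM with the combination. In the other rats it was 40.5, 100, 114, 139 and 288 CPM in vehicle and 137, 154 and 712 CPM with the combination. The combination rats lay within or above the vehicle range, and the log2 fold change was 1.46 ± 0.84 (SE; edgeR adjusted p = 0.835), or -0.10 without rat P33. Batch 2 alone gave -0.61 and batch 3 alone 2.07. With anti-PD-L1 Cd59 was 23.03, 84.3, 84.9, 114 and 363 CPM, a log2 fold change of -0.10 ± 0.74, and with the inhibitor 33.4, 37.97 and 148 CPM, a log2 fold change of -1.02 ± 0.89 (SE). In the other, Ptprc-poor columns the medians of Cd59 were close to each other across groups, from 159 CPM in untreated tumours to 210 CPM with the combination.

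C3, the shared substrate of the pathways, overlapped in all groups. It was 22.7 to 235 CPM in vehicle, 37.9 to 50.3 CPM with the inhibitor, 23.8 to 213 CPM with anti-PD-L1 and 25.5 to 164 CPM with the combination. The log2 fold changes against vehicle were -1.41, -0.35 and -0.28, with SE of 0.93, 0.76 and 0.88 and edgeR adjusted p of 0.532, 0.904 and 0.962. Tumours of 1 rat could differ widely, since the 3 leukocyte columns of rat P5 held 223, 232 and 1292 CPM of C3.

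Relative to the macrophage markers, the differences of Cfp, Cd59 and C3 from vehicle had the opposite sign to that of C1qb. With anti-PD-L1 the differences were 1.16 for Cfp, 1.60 for Cd59 and 1.54 for C3, with exact two-sided permutation p of 0.0317, 0.0238 and 0.0397. Cd59 differed by 1.91 with the combination (exact p = 0.0357) and by 1.06 with the inhibitor. The smallest p adjusted over the 30 tests was 0.298, so none passed. Relative to Csf1r alone, the anti-PD-L1 differences of Cfp, Cd59 and C3 were 0.67, 1.11 and 1.04 (exact permutation p = 0.444, 0.238 and 0.286), and relative to Cd68 alone 0.47, 0.91 and 0.84 (exact permutation p = 0.111, 0.0476 and 0.206). Taken relative to Cd68 alone, C3 with the combination (-0.34) and Cfp with the inhibitor (-0.037) turned sign. The smallest p these designs allow is 0.00397 for 5 against 5 rats, 0.0179 for 3 against 5 and 0.05 for 3 against 3.

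**Figure D4:**
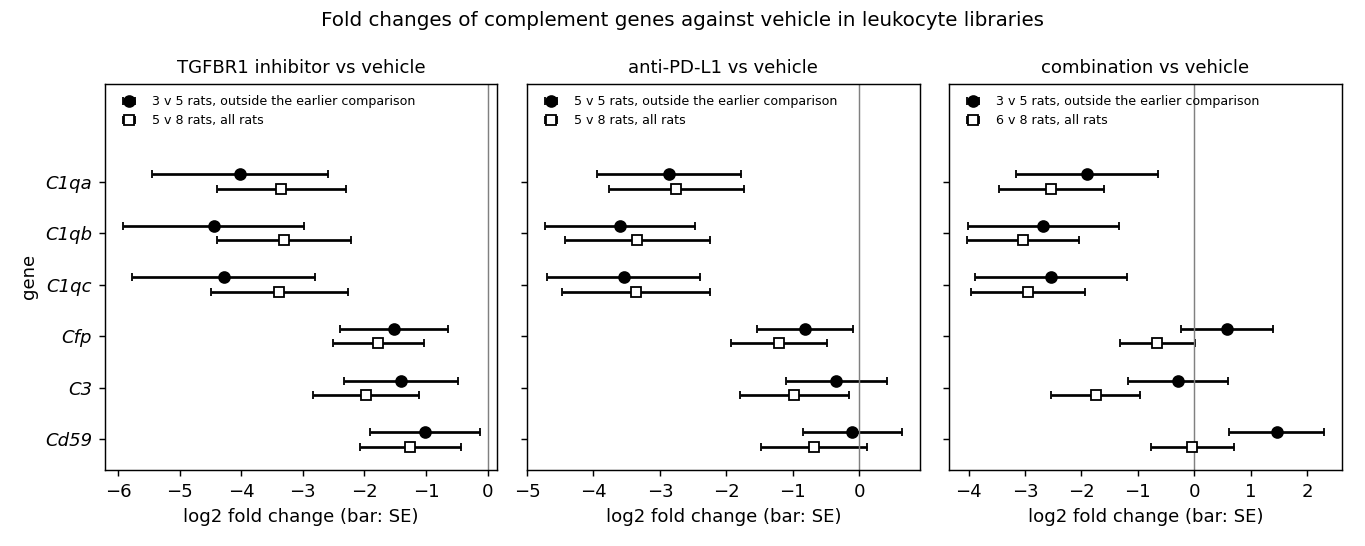
Log2 fold change against vehicle (x axis, bars are SE) for each gene and agent, from edgeR, in rats outside the earlier comparison (filled) and in all rats (open). C1q chains lie between -4.45 and -1.90 outside the earlier comparison, while Cfp and Cd59 with the combination lie at 0.59 and 1.46.

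The combination was also set against each agent alone. Against the inhibitor, Cd59 was higher by 2.48 ± 1.01 and Cfp by 2.11 ± 0.96 on the log2 scale (SE), with unadjusted p of 0.0269 and 0.0435 and an edgeR adjusted p of 0.999 for both. Without rat P33 the values were 0.92 and 0.90. Of all genes tested, 1.41% had an unadjusted p under 0.05 with higher levels in that contrast. In batch 2 alone, with 1 combination rat, both values were of the other sign (-0.39 and -0.43). C1qa was 146 to 459 CPM with the combination and 23.1 to 126 CPM with the inhibitor, the only gene of the 6 whose groups did not overlap in any treatment contrast, and 1.79% of all genes were separated in that way. Against anti-PD-L1 the 6 log2 fold changes ran from 0.06 for C3 to 1.56 for Cd59, with overlapping groups and an edgeR adjusted p of 1. These contrasts share the 3 combination rats.

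Levels were also ordered by the group medians over all rats, the 8 earlier rats that chose the genes included, as a description. C1qb was highest in vehicle (322 CPM, 8 rats), then anti-PD-L1 (123 CPM, 5 rats), combination (93.7 CPM, 6 rats), untreated tumours (75.4 CPM, 7 rats) and the inhibitor (69.7 CPM, 5 rats). Cfp ran from 449 CPM in vehicle over 208 CPM with anti-PD-L1, 178 CPM with the inhibitor and 170 CPM in untreated tumours to 135 CPM with the combination. Without the earlier rats the combination moved up in both orders. C1qb medians were then 373 CPM in vehicle, 203 with the combination, 123 with anti-PD-L1 and 44.1 with the inhibitor, and Cfp medians were 380 with the combination, 357 in vehicle, 208 with anti-PD-L1 and 80.2 with the inhibitor. Neighbours in these orders overlapped, and no group was separated from the next by more than its range. In untreated tumours C1qb was 12.5 to 381 CPM in 6 rats and 2544 CPM in rat C2. These tumours belong to another cohort and all their leukocyte columns to another batch, so cohort, batch and treatment cannot be told apart there.

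Drug-treated rats were further divided by the growth class that the deposited sample table gives each tumour. The rule of the class is not given in the sources used here. All leukocyte columns with a class came from stable tumours in 4 rats (2 on the inhibitor, 1 on anti-PD-L1 and 1 on the combination). They came from growing ones in 10 rats, and treatment was a covariate in the fit. The leukocyte column of tumour 2 of rat P26 had no class and was left out. Rats P24 and P31, with leukocyte columns of both classes, were left out. Rat P17, counted as stable, also had a growing tumour, which gave no leukocyte column. This comparison includes the earlier treated rats P16, P19, P23 and P35, all in the growing class. Combination values of P23 and P35 helped to choose the genes, so values of the 6 genes here are not independent of that choice. Their differences are given as a description, without p values. No fit left all of these rats out. All 6 genes were lower in stable tumours by the fitted value, and none of 11487 genes passed (percent called 0%). At an unadjusted p under 0.05 there were 728 genes (6.34%), and DESeq2 called 1 gene (0.00871%), none of the 6.

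C1qb was 2.34, 13.6, 44.1 and 79.2 CPM in stable tumours and 28.7 to 267 CPM (median 134) in growing ones. Rats P28 and P21, both stable, were below every growing rat. The log2 difference of C1qb, stable minus growing, was -2.17 ± 0.83 (SE), or -2.51 without rat P17. C1qc differed by -2.07 ± 0.81 (unadjusted p = 0.0237). Those 2 were the members with an unadjusted p under 0.05, against 3.03% of all genes in that direction. C1qa, Cd59, Cfp and C3 differed by -1.78, -1.45, -1.21 and -0.87 with edgeR adjusted p of 0.753 to 0.827. The 16 macrophage markers summed to 475 to 1485 CPM in stable and 690 to 3908 CPM in growing rats, with medians of 631 and 1408 CPM and overlapping classes, and their part was not tested. In rat P24, which had both classes, the stable tumour held 263 CPM of Cfp and 80.3 of C1qb and the growing one 556 and 171. In rat P31 the growing tumour held 34.4 CPM of Cfp and the 2 stable ones 45.2 and 117, and C1qb was 25.4 to 37.4 CPM in all 3.

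**Figure D5:**
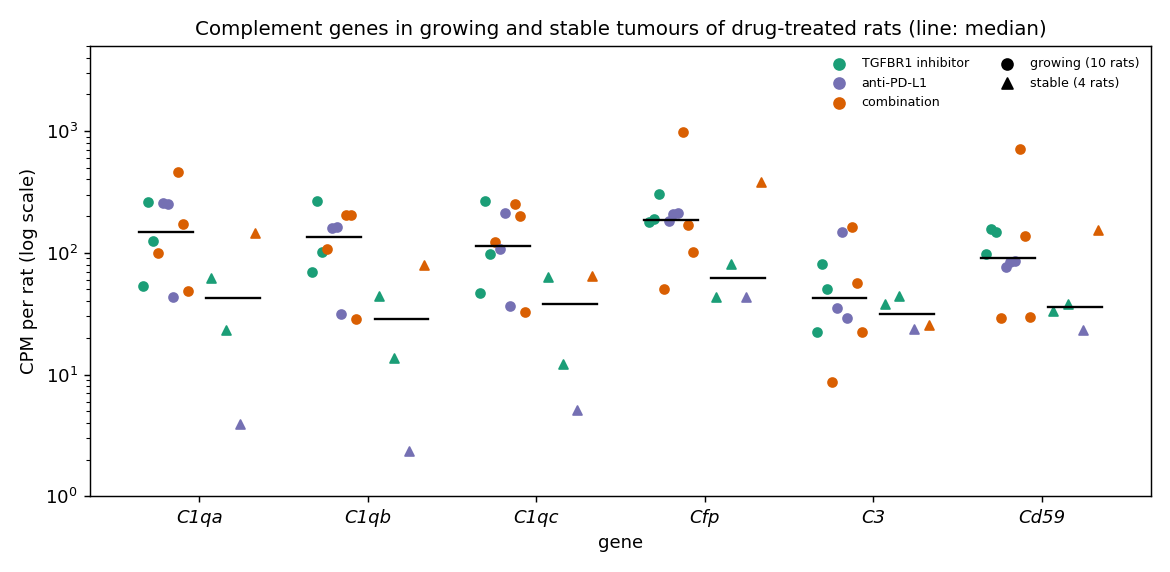
CPM of each gene (logarithmic axis) in leukocyte libraries of 10 drug-treated rats with growing tumours (circles) and 4 with stable tumours (triangles), coloured by treatment, with a line at the median. Medians of C1qb are 134 and 28.8 CPM, and the classes overlap for every gene.

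The other genes of the complement system gave no call either. Of 52 genes in 5 lists that are not among the 6, 47 were in the table and 34 passed the filter in the rats outside the earlier comparison, and none passed the test in any treatment contrast. Against vehicle, 20 of 34 were below 0 with the inhibitor (median log2 fold change -0.27), 26 with anti-PD-L1 (-0.50) and 23 with the combination (-1.05), beside medians over all genes of 0.0012, -0.045 and -0.043.

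Among starters of the classical and lectin pathways, 10 of 12 tested genes were below 0 with the inhibitor, 12 with anti-PD-L1 and 11 with the combination, the C1q chains included. C2, a protease of the classical pathway, was 100 ± 75.1 CPM in vehicle (SD, n = 5) and 29.2 ± 13.3 CPM with the inhibitor (SD, n = 3), a log2 fold change of -1.86. C2 had a median of 34 CPM in leukocyte columns and 468 CPM in the others. Fcnb, a ficolin of the lectin pathway, was 126 ± 102.8 CPM in vehicle and 18.4 ± 15.8 CPM with the inhibitor. In the alternative pathway Cfd, which encodes factor D, was 12.2, 23.99, 91.8, 284 and 806 CPM in vehicle and 5.54, 8.19 and 19.2 CPM with the inhibitor. Its log2 fold changes were -4.59 with the inhibitor, -3.84 with anti-PD-L1 and -2.69 with the combination, with edgeR adjusted p of 0.331, 0.533 and 0.835. Cfb, factor B, was a gene of the other columns (median 683 CPM against 3.43 CPM). DESeq2 called Cfd with the inhibitor and with anti-PD-L1 (adjusted p = 0.0204 and 0.0259). It also called Fcna, a ficolin, in both (adjusted p = 0.0169 and 0.00785), and C5ar1, a receptor of the C5a fragment, with the inhibitor (0.044), genes named after these values were seen. Each of these values was lower than in vehicle.

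Terminal genes were low, with C6 at a mean of 2.42 CPM and C8g at 6.61 CPM over the 31 rats. Among complement inhibitors, 5 of 9 tested were below 0 with the TGFBR1 inhibitor, 7 with anti-PD-L1 and 5 with the combination. Cr1l, a membrane regulator, was 165 ± 24.6 CPM in vehicle and 183 ± 60.6 CPM with the combination. Cd55, which speeds decay of the C3-cleaving enzyme, was 11.3 to 57.5 CPM in vehicle and 17.4, 41.2 and 971 CPM with the combination, the highest again in rat P33. Among receptors, 7, 8 and 6 of 12 tested were below 0. Itgb2, the shared chain of complement receptors 3 and 4, was 482 ± 144 CPM in vehicle and 521 ± 226, 530 ± 143 and 677 ± 129 CPM with the inhibitor, anti-PD-L1 and the combination, and Calr, calreticulin, was 863 ± 409 CPM in vehicle and 954 to 1219 CPM on average in the treated arms.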

How the data were processed

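Sorted fractions of rat mammary tumours were measured by bulk RNA sequencing of SMARTer libraries, per the labels' protocols. The authors deposited 1 table of raw counts per gene symbol. Per the submitters' processing notes, STAR and FastQC were used with build rn6, while the counter, the annotation and any use of strand are not given in the sources. Of the columns, 13 were matched by name to 1 sample, 94 to a treatment group only, and 1 was not used. No column came from a mammary gland, so the planned comparison with glands was not made. The deposited sample table gave each tumour's batch and growth class.

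The members and gene lists were chosen with earlier results of these data known. Counts of leukocyte columns were summed per rat and tested with edgeR 4.0.16 (quasi-likelihood F test, robust dispersions, TMM, filterByExpr) in R 4.3.3, with Benjamini-Hochberg adjustment over all genes at 0.05. SE were derived from the fold change and its F statistic. CPM use total counts, fold changes TMM (factors 0.596 to 1.24 over the 31 rats). Ratios to macrophage markers were tested by exact two-sided permutation over rats, adjusted over 30 tests. Named were the 6 genes, the 2 genes with the highest mean per list, the 3 nearest genes per member and marker checks. The fits were tested on simulated data. Other settings were RLE scaling, no filter, at least 5 CPM, DESeq2 1.42.0, limma 3.58.1 with voom on columns and rat as a block, Ptprc limits of 100 and 600 CPM, 1 column per rat, batch as a covariate, only the 2 groups, all rats and leaving out each rat. Batch 2 alone and batch 3 alone were chosen after seeing the data. Totals of 6609198 to 29727437 counts put 3 counts at 0.101 to 0.454 CPM per leukocyte column, and such floors cover counting error only. A result for 1 other complement gene is not reported here.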

Additional observations from a re-analysis of the deposited data

Results flagged for a closer look

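In 30 groups of rats (6 genes in 5 treatment groups, all rats), the gap between an extreme rat and its nearest neighbour was compared with the group's range by Dixon's criterion on CPM. Chance alone gives about 1 flag in 20 groups. There were 10 flags, every one for the highest rat of its group, and CPM values are skewed.

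Combination rat P33 stood apart from the other 5 combination rats for 4 genes, with 980 CPM of Cfp, 712.1 CPM of Cd59, 458.9 CPM of C1qa and 163.7 CPM of C3. Of those 5, rats P23, P31 and P35 are earlier rats whose low combination values helped to choose the genes. The gap is therefore not independent of that choice. The macrophage markers of rat P33 summed to 3908 CPM, against 546 to 1571 CPM in the other combination rats. Untreated rat C2 stood apart from the other 6 untreated rats with 938 CPM of Cfp, 2477 CPM of C1qa, 2544 CPM of C1qb and 2492 CPM of C1qc. Its Ptprc level, 498 CPM, was the lowest of the untreated leukocyte libraries, and its macrophage markers summed to 7224 CPM. Anti-PD-L1 rat P24 stood apart with 363.1 CPM of Cd59, and vehicle rat P5 with 559.3 CPM of C3, most of it from 1 of its 3 tumours. Rat P5 is an earlier rat too.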

How the results depend on the processing

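Over the 6 genes, the median log2 fold change kept its sign under every setting tried. The setting with all rats puts back the earlier rats that chose the genes, so its sign is no check of the combination against vehicle. That median also covers genes of both signs. With the combination Cfp was at 0.59 and Cd59 at 1.46, and the C1q chains were at -2.67 to -1.90. It ran from -3.28 to -2.36 for the TGFBR1 inhibitor, -2.88 to -1.66 for anti-PD-L1 and -2.57 to -0.96 for the combination against vehicle, and with 1 rat left out from -3.65 to -2.32, -2.33 to -1.34 and -2.30 to -0.66. For stable against growing tumours it ran from -1.75 to -1.37, or -2.16 to -0.99 with 1 rat left out. For the combination against the inhibitor it was 0.62 in all rats and 0.39 in batch 2 alone, and 0.99 to 2.66 with 1 rat left out. Against anti-PD-L1 it ran from 0.35 to 1.58, or 0.088 to 1.36 with 1 rat left out. Apart from the fits with 1 rat left out, only DESeq2 called genes. Against vehicle it called 27 higher and 76 lower for the inhibitor, 3 of them among the 6 (C1qa, C1qb and C1qc with log2 fold changes of -4.02, -4.46 and -4.29), 4 higher and 49 lower for anti-PD-L1 and 3 lower for the combination. It called 2 lower for the combination against anti-PD-L1 and 1 lower for stable against growing tumours. The cause was not tested. With 1 rat left out, edgeR gave 0 calls, except 1 for stable against growing tumours without rat P36, so the range there was 0 to 1.

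The signs of several single genes turned. For the combination against vehicle, Cfp was -0.05 with batch as a covariate, -0.65 in all rats, -1.78 in batch 2 alone and -0.62 to 1.08 with 1 rat left out. Cd59 was -0.036 in all rats, -0.61 in batch 2 alone and -0.099 to 1.95 with 1 rat left out. C3 was 0.30 with 1 column per rat and -1.66 to 0.17 with 1 rat left out. For anti-PD-L1 against vehicle, Cd59 was 0.091 and 0.24 with Ptprc limits of 100 and 600 CPM, 0.017 with 1 column per rat, 0.67 in batch 3 alone and -0.99 to 0.41 with 1 rat left out, and C3 was 0.46 with 1 column per rat and -0.99 to 0.11 with 1 rat left out. For the combination against anti-PD-L1, Cfp was -0.18 in batch 2 alone, and C3 was -0.17 with 1 column per rat, -0.088 with batch as a covariate, -0.77 in all rats and -0.13 in batch 3 alone. With 1 rat left out Cd59 was -0.011 to 2.46, C1qa -0.064 to 1.40 and C3 -1.32 to 0.71. For the combination against the inhibitor in batch 2 alone, Cfp was -0.43 and Cd59 -0.39, and C3 was -0.24 to 1.58 with 1 rat left out. Relative to Cd68 alone in place of the macrophage list, C3 with the combination was -0.34, Cfp with the inhibitor -0.037 and Cfp of the combination against anti-PD-L1 -0.027. Scaling by TMM changed no sign between leukocyte and other columns. The glands were not compared, since no column came from one. No paired analysis was possible between treatments because each rat had 1 treatment and the columns carry no replicate numbers.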
